A study of Danio rerio with 5 samples.

Results

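Solute carriers are membrane proteins that move amino acids, sugars, ions, metals, nucleotides and lipids across the plasma membrane and the membranes of organelles. The transcripts described here are those of 132 zebrafish solute carrier genes, measured by 153 of the 15617 probe sets of an Affymetrix zebrafish array. They were taken by gene symbol (slc followed by a family number), and 5 further genes with such a symbol were set aside. The members fell into 37 families. The symbol pattern also took in slc4a1ap and slc7a6os, which are named after a neighbour or partner of a transporter and are not transporters themselves.

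RNA came from wild-type zebrafish embryos at 72 h after fertilization, injected at the 1- to 2-cell stage, in 3 groups. The first held Bdh2 morphants that expressed ectopic Bdh2 (1 array, called the ectopic Bdh2 array below). These embryos received the Bdh2 morpholino together with a synthetic capped mRNA for mouse bdh2 at 50 µg/ml. The second held Bdh2 morphants (2 arrays), and the third control morphants (2 arrays), both without added mRNA. All 3 groups received 1 to 2 nL with morpholino at 130 µmol/L. Injection was thus shared by all 5 arrays, and no uninjected embryos were analysed here. Bdh2 is a short-chain dehydrogenase with a proposed role in making a small iron-binding molecule of mammalian cells, and the comparisons ask which transcripts differ when it is targeted and where they lie when it is supplied again. The labels give neither the kind of morpholino, the number of embryos behind an array nor whether replicates came from separate clutches, so the p-values measure only the spread between these samples. With 2 arrays against 2, an exact permutation test cannot go below p = 0.333. The ectopic Bdh2 group has 1 array, so its spread was taken from the replicated groups.

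The bdh2 probe set read 142 on the ectopic Bdh2 array, 235 and 643 in Bdh2 morphants 1 and 2, and 344 and 335 in controls 1 and 2. Bdh2 morphants and controls overlapped, and the ectopic Bdh2 array was below all 4, with differences of -1.36 from Bdh2 morphants and -1.17 from controls (SE 0.607 for both; limma adjusted p = 0.428 and 0.736). The probe set does not separate Bdh2 morphants from controls, and it need not record a mouse mRNA or a block of translation. Median intensity over all probe sets was 174 on the ectopic Bdh2 array, 157 and 142 in Bdh2 morphants and 161 and 162 in controls. The arrays differed in a measure of RNA quality, the ratio of the 3′ to the 5′ probe set of acta1, an actin gene, which was 6.63 on the ectopic Bdh2 array, 11.8 and 3.49 in Bdh2 morphants and 4.28 and 2.60 in controls. For gapdh, a glycolytic enzyme, the ratio was 1.99 on the ectopic Bdh2 array, 2.82 and 1.71 in Bdh2 morphants and 2.68 and 1.50 in controls. Both ratios were higher with replicate number 1 than with number 2 in each replicated group. The part of RNA quality in the values below was not tested.

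Each value is a probe set intensity on a linear scale, and each difference is on the log2(intensity + 16) scale, which understates the differences of dim probe sets. Intensities of different probe sets cannot be set against each other. A probe set was tested if its mean lay above the 40th percentile, an intensity of 97.6. Of the 153 member probe sets, 85 passed (55.6%), as did 9301 of 15502 in all, and they covered 78 of the 132 genes. The other 54 genes were not tested, and 40 of them lay under 97.6 on all 5 arrays. A gene is given by its probe set of highest mean intensity.

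Among the tested solute carriers, those whose Bdh2 morphant arrays lay furthest below the controls were a dicarboxylate transporter (slc13a2), a glutamate transporter (slc1a2b), a mitochondrial carrier (slc25a55b), an amino acid transporter heavy chain (slc3a2b) and a glucose 6-phosphate transporter (slc37a4b). None passed the test. In this comparison 0 of 9301 tested probe sets passed an adjusted p of 0.05 by limma (0%), among them 0 of the 85 member probe sets, whose smallest adjusted p was 1.00. At an unadjusted p under 0.05, limma called 4 solute carriers lower and 0 higher, where it called 1.92% of all tested probe sets lower and 0.161% higher. The 4 were slc1a2b, slc3a2b, slc13a2 and slc25a55b, and the last 2 passed the filter on intensity only through their control values, so their count is no support for a direction. The 2 Bdh2 morphant arrays lay wholly below the 2 control arrays for 14 of the 78 genes and wholly above them for 6, against 14.1% and 10.3% of all tested probe sets. The median difference over the 78 genes was 0.01, beside -0.01 over all tested probe sets, and 37 genes lay below 0 (47.4%, beside 50.7%). Within replicate numbers 1 and 2 the member medians were -0.01 and -0.02. With each array centred on its median, 37.2% of the genes lay below 0, beside 37.9% of all tested probe sets.

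slc13a2 encodes a transporter that brings citrate and other dicarboxylates into cells, known in mammals from kidney tubule and intestine. It read 62.6 on the ectopic Bdh2 array, 91.1 and 69.1 in Bdh2 morphants 1 and 2 and 301 and 244 in controls 1 and 2. All 3 arrays with the Bdh2 morpholino were below both controls, and the ectopic Bdh2 array was the lowest. Bdh2 morphants differed from controls by -1.59 (SE 0.355, n = 2 and 2; limma adjusted p = 1.00), with -1.57 and -1.61 within numbers 1 and 2. For the ectopic Bdh2 array the difference was -0.28 from Bdh2 morphants (SE 0.434; limma adjusted p = 0.832) and -1.87 from controls (SE 0.434; limma adjusted p = 0.251). Of the 78 genes, this was the lowest difference in both comparisons with controls. All 3 arrays with the Bdh2 morpholino read under the filter of 97.6, so the gene was tested through its control values.

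slc25a55b, a mitochondrial carrier, had the same order of arrays. It read 47.1 on the ectopic Bdh2 array, 74.3 and 74.0 in Bdh2 morphants and 229.8 and 157 in controls, with no overlap between groups. The Bdh2 morphants differed from controls by -1.19 (SE 0.365; limma adjusted p = 1.00), and the ectopic Bdh2 array from controls by -1.71 (SE 0.447; limma adjusted p = 0.339). It too was under the filter on all 3 of these arrays and was tested through its control values. Its paralog slc25a55a showed another order: it read 2431 on the ectopic Bdh2 array, 1509.7 and 1373 in Bdh2 morphants and 1692 and 1930.1 in controls, and the ectopic Bdh2 array was the highest of the 5.

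slc37a4b belongs to the endoplasmic reticulum transporters of glucose 6-phosphate, which serve glucose release from glycogen in liver. It read 189 on the ectopic Bdh2 array, 208 and 413 in Bdh2 morphants and 499.6 and 738 in controls. Within each group of 2, number 2 was the higher, and the groups still did not overlap. The difference of Bdh2 morphants from controls was -1.01 (SE 0.435; limma adjusted p = 1.00), with -1.20 and -0.81 within numbers, and that of the ectopic Bdh2 array from controls was -1.61 (SE 0.532; limma adjusted p = 0.535). The paralog slc37a4a read 83.8 on the ectopic Bdh2 array, 179.9 and 225 in Bdh2 morphants and 118 and 202 in controls. Its Bdh2 morphants and controls overlapped, and the ectopic Bdh2 array was below all 4 others. Of the same family, slc37a2 read 546 on the ectopic Bdh2 array, 398 and 577 in Bdh2 morphants and 469 and 544 in controls, and the 3 groups lay close together.

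**Figure D1:**
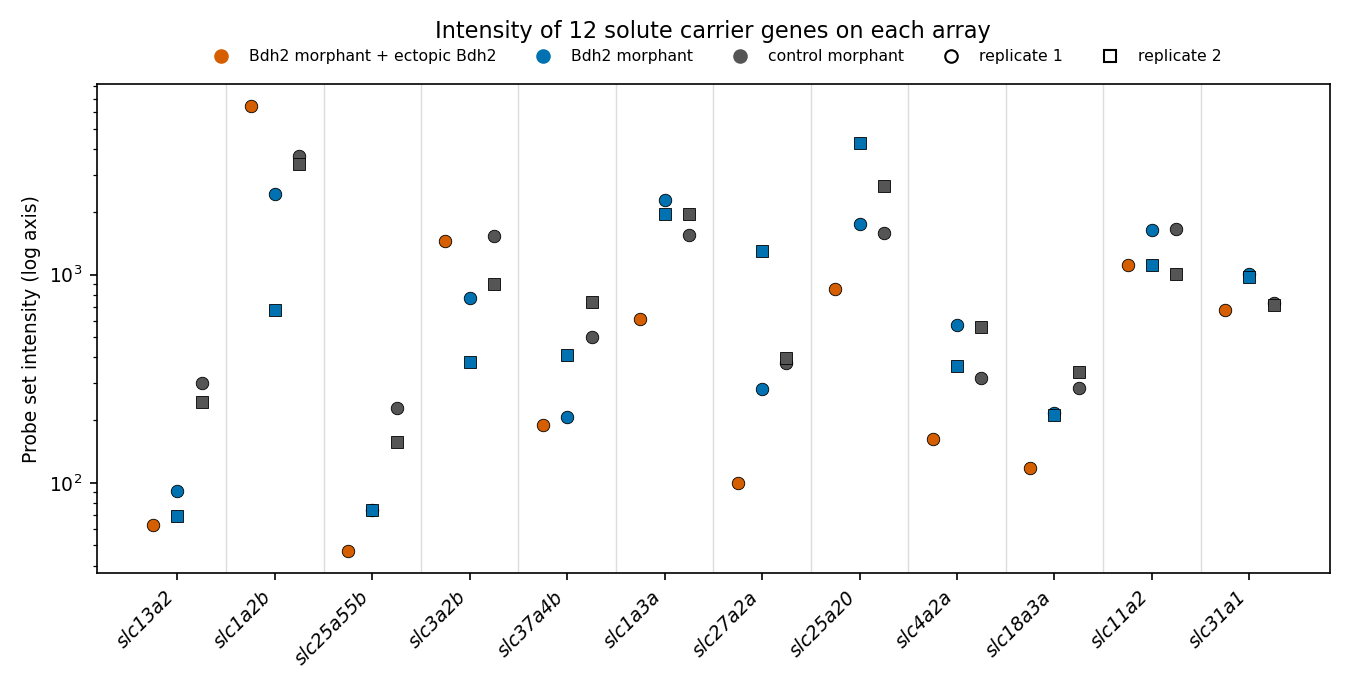
Probe set intensity (log axis) of 12 solute carrier genes on each of the 5 arrays. Colours mark the groups, circles replicate number 1 and squares number 2. For slc13a2 and slc25a55b both Bdh2 morphant arrays and the ectopic Bdh2 array lie below both controls, whereas for slc1a3a, slc25a20 and slc4a2a the ectopic Bdh2 array alone lies below the other arrays.

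The glutamate transporters of family 1 clear glutamate released at synapses, and in mammals glia hold most of them. slc1a2b, of this kind, read 6424 on the ectopic Bdh2 array, 2427 and 678 in Bdh2 morphants 1 and 2 and 3711 and 3384 in controls 1 and 2. Both Bdh2 morphants were below both controls, Bdh2 morphant 2 far more so, and the ectopic Bdh2 array was above all 4 others. The difference of Bdh2 morphants from controls was -1.45 (SE 0.558; limma adjusted p = 1.00), with -0.61 and -2.29 within numbers 1 and 2. The ectopic Bdh2 array differed from Bdh2 morphants by 2.31 (SE 0.683; limma adjusted p = 0.305), the highest difference of the 78 genes in that comparison, and from controls by 0.86 (SE 0.683; limma adjusted p = 0.808). Without Bdh2 morphant 1 the difference from the remaining Bdh2 morphant was 3.21 and passed the test (limma adjusted p = 0.0325), whereas without Bdh2 morphant 2 it was 1.4 and did not pass (limma adjusted p = 0.401). Without control 1 or control 2 it stayed 2.31 and passed as well, with a new estimate of the spread (limma adjusted p = 0.0275 and 0.0280).

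slc1a3a, another glial glutamate transporter, did not share this order. It read 611 on the ectopic Bdh2 array, 2268 and 1962 in Bdh2 morphants and 1540.4 and 1956 in controls. The ectopic Bdh2 array was the lowest by a wide margin, and both Bdh2 morphants were above both controls, 1 of them only just. The difference of that array from Bdh2 morphants was -1.76 (SE 0.378; limma adjusted p = 0.171), the smallest adjusted p of any member, and that from controls -1.48 (SE 0.378; limma adjusted p = 0.319). Bdh2 morphants differed from controls by 0.28 (SE 0.309; limma adjusted p = 1.00). The neutral amino acid exchanger slc1a4 read 312 on the ectopic Bdh2 array, 542 and 417 in Bdh2 morphants and 674 and 576 in controls. Its groups did not overlap, and the steps between them were small.

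Members known from neurons and glia were few on the array: 6 of a list of 33, of which 5 were tested. In addition to the glutamate transporters these were slc18a3a, the vesicular acetylcholine transporter, slc6a11a, a GABA transporter, and slc6a17, a vesicular transporter of neutral amino acids. slc18a3a read 118 on the ectopic Bdh2 array, 216 and 211 in Bdh2 morphants and 284 and 339 in controls. The 3 groups did not overlap, with the ectopic Bdh2 array the lowest, and differences were -0.51 for Bdh2 morphants from controls and -1.28 for the ectopic Bdh2 array from controls (SE 0.333 and 0.408; limma adjusted p = 1.00 and 0.498). slc6a11a read 75.9 on the ectopic Bdh2 array, 69.2 and 674 in Bdh2 morphants 1 and 2 and 419.9 and 107 in controls 1 and 2. The high array was number 2 among Bdh2 morphants and number 1 among controls, so the difference was -2.36 within number 1 and 2.49 within number 2, and 0.07 over both (SE 1.01; limma adjusted p = 1.00). slc6a3, the dopamine transporter, lay between 3.21 and 25.1 on the 5 arrays and was not tested. The 5 tested genes had a median of -0.78 for the ectopic Bdh2 array minus Bdh2 morphants, with 2 genes higher and 3 lower, and of -0.11 for Bdh2 morphants minus controls, with 2 higher and 3 lower.

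Markers of neurons had a pattern of their own. All 11 tested neuronal markers (of 13 listed) had higher values on the ectopic Bdh2 array than in both Bdh2 morphants (42.7% of all tested probe sets), with a median difference of 1.25. All 11 had lower mean values in Bdh2 morphants than in controls, with a median of -1.02, and -0.42 and -1.26 within numbers 1 and 2. For 9 of the 11 these groups did not overlap (14.1% of all tested probe sets). None of the 11 passed the test in either comparison. Their summed intensity was 29778 on the ectopic Bdh2 array, 19395 and 11438 in Bdh2 morphants and 26009 and 20538 in controls. The 3 tested markers of photoreceptors and bipolar cells (of 11 listed, 7 on the array) had medians of 4.15 for the ectopic Bdh2 array minus Bdh2 morphants and -3.14 for Bdh2 morphants minus controls. In the latter none of the 3 passed the test (smallest limma adjusted p = 0.555). In the former the test called some but not all of the 3 higher, and none with a common prior for the variance. The 7 on the array summed to 3213 on the ectopic Bdh2 array, 360 and 336 in Bdh2 morphants and 2625 and 1821 in controls. Passing the filter thus rested largely on the arrays where they were high, which may have partly fixed their direction. Of 17 solute carriers listed for retina and pigment epithelium, 0 were among the members on the array. In RNA of whole embryos fewer cells of a type and less RNA per cell cannot be told apart, and the part of these cell types in the values of slc1a2b and slc1a3a was not tested.

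The amino acid transporters of families 3, 7, 38 and 43 import essential and neutral amino acids, and the family 3 protein is the heavy chain that carries several family 7 transporters to the plasma membrane. Of 16 genes 12 were tested, among them slc7a6os, which is not a transporter. slc3a2b, a heavy chain gene, read 1452 on the ectopic Bdh2 array, 772 and 379.8 in Bdh2 morphants and 1523 and 897 in controls. Both Bdh2 morphants were below both controls, and the ectopic Bdh2 array was within the range of the controls. The differences were -1.09 for Bdh2 morphants from controls (SE 0.455; limma adjusted p = 1.00), -0.97 and -1.21 within numbers, and 1.39 for the ectopic Bdh2 array from Bdh2 morphants (SE 0.557; limma adjusted p = 0.386). Its paralog slc3a2a read 397 on the ectopic Bdh2 array, 858 and 584 in Bdh2 morphants and 811 and 562 in controls. There Bdh2 morphants and controls overlapped, and the ectopic Bdh2 array was below all others.

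Among the light chains and other importers, slc7a3a, a transporter of arginine and lysine, read 592 on the ectopic Bdh2 array, 493 and 403 in Bdh2 morphants and 673 and 698 in controls. Both Bdh2 morphants were the lowest arrays, and their difference from controls was -0.60 (SE 0.326; limma adjusted p = 1.00). slc43a2a, a transporter of branched-chain and aromatic amino acids, read 673 on the ectopic Bdh2 array, 1115 and 1661 in Bdh2 morphants and 921 and 1217 in controls. The ectopic Bdh2 array was below all others. For slc38a5b, a glutamine transporter, and slc38a2, a neutral amino acid transporter known in mammals to be induced when amino acids are scarce, the 2 Bdh2 morphants straddled the controls. slc38a5b read 1019 on the ectopic Bdh2 array, 2112 and 717 in Bdh2 morphants and 1421 and 1527 in controls, and slc38a2 read 643 on the ectopic Bdh2 array, 597 and 251 in Bdh2 morphants and 423 and 395 in controls.

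Over the 12 genes, median differences were 0.10 for the ectopic Bdh2 array minus Bdh2 morphants, 0.02 for the ectopic Bdh2 array minus controls and -0.10 for Bdh2 morphants minus controls. With each array centred on its median these medians were -0.10, -0.08 and 0.00, so their direction depended on the scaling. In each comparison of the ectopic Bdh2 array 6 of the 12 were higher and 6 lower. Among the higher ones was slc7a6os, with 0.90 from Bdh2 morphants and 0.71 from controls. The class medians without it were not computed, so their direction may also depend on this gene. Of 12 genes listed as targets of the amino acid stress response, 6 were tested, with medians of 0.08, -0.12 and -0.22 in the same 3 comparisons.

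**Figure D2:**
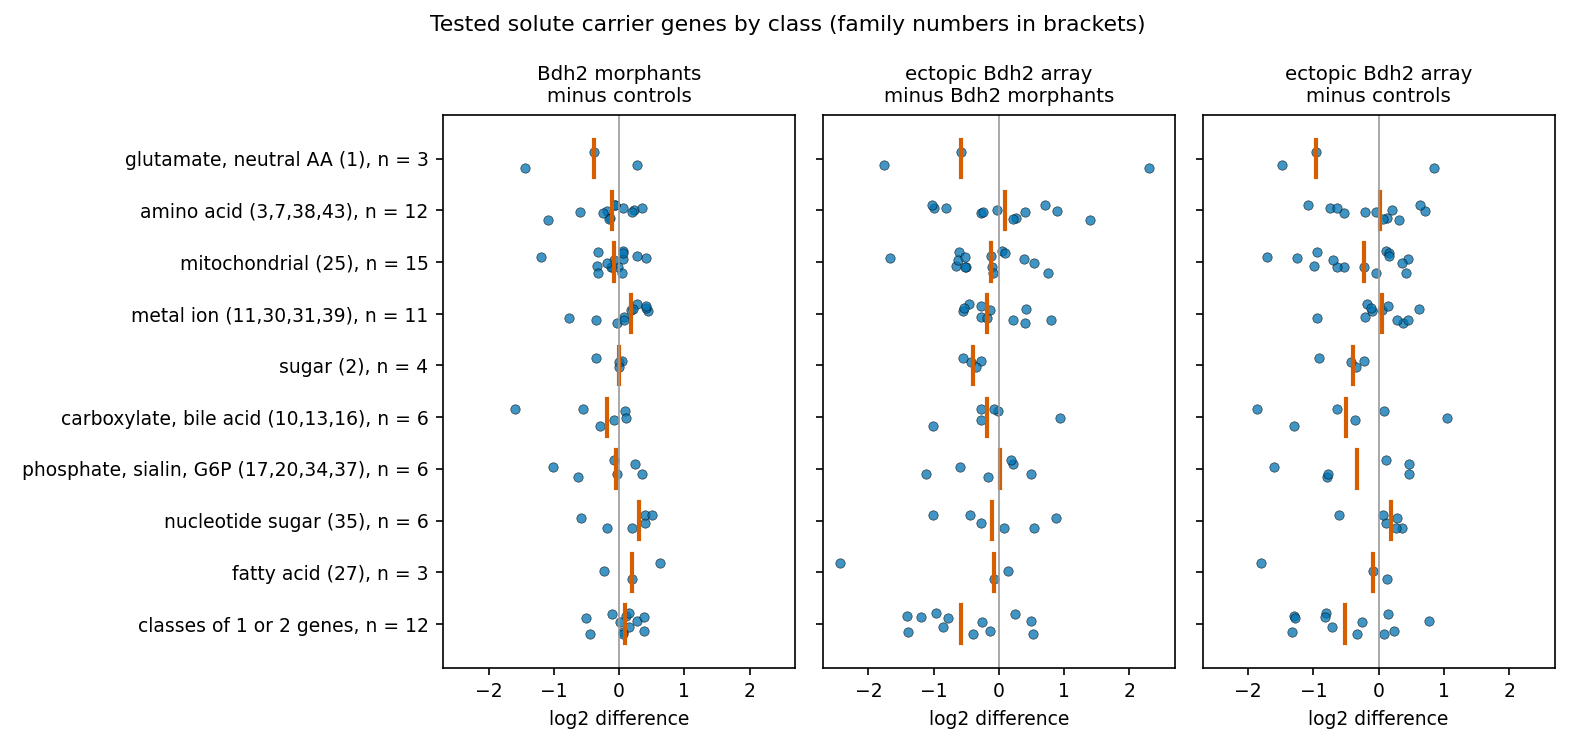
Log2 differences of the 78 tested solute carrier genes by class, one point per gene and an orange bar at the class median, for the 3 comparisons. Most classes scatter on both sides of 0, and all 4 tested sugar transporters of family 2 lie below 0 in both comparisons of the ectopic Bdh2 array.

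Mitochondrial carriers of family 25 move metabolites and nucleotides across the inner membrane of mitochondria, and 15 of 23 were tested. slc25a20, which exchanges carnitine for acylcarnitine so that fatty acids can be oxidised, read 854 on the ectopic Bdh2 array, 1757 and 4304 in Bdh2 morphants and 1588 and 2654 in controls. The ectopic Bdh2 array was below all others, and number 2 was the higher array in each replicated group. The difference of the ectopic Bdh2 array was -1.67 from Bdh2 morphants (SE 0.597; limma adjusted p = 0.346) and -1.25 from controls (SE 0.597; limma adjusted p = 0.736). Bdh2 morphants differed from controls by 0.42 (SE 0.487; limma adjusted p = 1.00).

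slc25a3b, the phosphate carrier of ATP synthesis, read 7704 on the ectopic Bdh2 array, 11588 and 12252 in Bdh2 morphants and 11649 and 13565 in controls. The 4 morphant and control arrays lay close together and overlapped, and the ectopic Bdh2 array was below them, with differences of -0.63 from Bdh2 morphants and -0.71 from controls (SE 0.252 for both; limma adjusted p = 0.387 and 0.591). slc25a33, a carrier of pyrimidine nucleotides, read 656 on the ectopic Bdh2 array, 1079 and 1003 in Bdh2 morphants and 1517 and 1155 in controls, in 3 groups that did not overlap. slc25a1a, the citrate carrier, went the other way with 886 on the ectopic Bdh2 array, 639 and 708 in Bdh2 morphants and 669.7 and 618 in controls, so that the ectopic Bdh2 array was the highest. Of the 15 genes, 10 were lower and 5 higher on the ectopic Bdh2 array than in Bdh2 morphants (median -0.12), 9 lower and 6 higher than in controls (median -0.22), and 9 lower and 6 higher in Bdh2 morphants than in controls (median -0.08). After centring of each array, 12, 9 and 7 of the 15 were lower, with medians of -0.33, -0.32 and 0.026.

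Skeletal muscle, a tissue rich in mitochondria, was marked by 12 tested genes of 14 listed, and all 12 were lower on the ectopic Bdh2 array, with medians of -2.41 from Bdh2 morphants and -3.05 from controls. Their summed intensity was 41090 on the ectopic Bdh2 array, 238360 and 212511 in Bdh2 morphants and 285058 and 258435 in controls. All 12 also had lower mean values in Bdh2 morphants than in controls, with a median of -0.30. There 9 of the 12 did not overlap (14.1% of all tested probe sets), and none passed the test. Of these 12, 11 fell by limma's test against Bdh2 morphants and all 12 against controls, where 0.527% and 0.667% of all tested probe sets were called. With a common prior for the variance, or without Bdh2 morphant 2, no probe set passed against Bdh2 morphants (smallest limma adjusted p = 0.0887 and 0.0652). The solute carriers listed for muscle and heart, 3 of 11 tested, had medians of -0.63 and -0.71 in these comparisons, none past the threshold. The part of muscle RNA in the mitochondrial carriers was not tested.

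Transporters of metals bear on the subject of the study, since Bdh2 has been tied to iron handling. slc11a2 encodes the importer of ferrous iron at the cell surface and out of endosomes. It read 1110.2 on the ectopic Bdh2 array, 1645 and 1107 in Bdh2 morphants 1 and 2 and 1655 and 1001 in controls 1 and 2. Number 1 was the higher array in both replicated groups, and within numbers Bdh2 morphants and controls differed by -0.01 and 0.14. The difference of Bdh2 morphants from controls was 0.07 (SE 0.385; limma adjusted p = 1.00), and those of the ectopic Bdh2 array were -0.28 from Bdh2 morphants and -0.21 from controls (SE 0.471 for both; limma adjusted p = 0.848 and 0.931). slc25a37, the mitoferrin that brings iron into mitochondria of red cell precursors, lay between 25.7 and 53.1 on the 5 arrays, under the filter, and was not tested. slc48a1b, which moves heme out of endosomes and lysosomes, read 275 on the ectopic Bdh2 array, 361 and 373 in Bdh2 morphants and 307 and 402 in controls, where Bdh2 morphants and controls overlapped. Over the list for red cells and heme supply, 3 of 13 genes were tested (slc11a2, slc25a39 and slc43a1a), with medians of -0.24, -0.04 and 0.07 for the ectopic Bdh2 array minus Bdh2 morphants, the ectopic Bdh2 array minus controls and Bdh2 morphants minus controls. The 6 red cell markers on the array summed to 54601 on the ectopic Bdh2 array, 94412 and 59874 in Bdh2 morphants and 107662 and 56229 in controls. In these sums number 1 was the higher array in both replicated groups, and the ectopic Bdh2 array was the lowest of the 5. By marker, the median was 0.12 for the ectopic Bdh2 array minus Bdh2 morphants, with 3 higher and 3 lower. For the ectopic Bdh2 array minus controls it was -0.19, with 2 higher and 4 lower. For Bdh2 morphants minus controls it was -0.48, with 2 higher and 4 lower.

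slc31a1, the high-affinity copper importer, had the highest difference of Bdh2 morphants from controls among genes whose arrays did not overlap. It read 673 on the ectopic Bdh2 array, 1009 and 969 in Bdh2 morphants and 728 and 717 in controls. Replicates lay close together in both groups, and the ectopic Bdh2 array was below all 4. The difference of Bdh2 morphants from controls was 0.44 (SE 0.31; limma adjusted p = 1.00), with 0.46 and 0.42 within numbers, and a second tested probe set of the gene gave 0.23. Its differences for the ectopic Bdh2 array were -0.54 from Bdh2 morphants and -0.10 from controls (SE 0.38 for both; limma adjusted p = 0.601 and 0.961). The second probe set gave 0.29 for the ectopic Bdh2 array minus controls, so the probe sets did not share a direction there.

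Zinc transporters of family 30 carry zinc out of the cytosol and those of family 39 into it. slc30a7, of the secretory pathway, read 861 on the ectopic Bdh2 array, 1195 and 1183 in Bdh2 morphants and 818 and 1166 in controls, and slc30a6, also of the secretory pathway, read 528 on the ectopic Bdh2 array, 540.4 and 626 in Bdh2 morphants and 519 and 505 in controls. In both genes the Bdh2 morphants were just above the controls, by less than the spread of the controls for slc30a7. slc39a13, a zinc transporter of the secretory pathway, read 108 on the ectopic Bdh2 array, 66.3 and 222 in Bdh2 morphants and 157 and 309 in controls, with number 2 the higher in each group and the groups overlapping. slc39a6, a zinc importer of the plasma membrane, read 869 on the ectopic Bdh2 array, 728 and 576 in Bdh2 morphants and 542 and 577 in controls, with the ectopic Bdh2 array the highest. Over the 11 tested metal transporters of 13, medians were -0.18 for the ectopic Bdh2 array minus Bdh2 morphants, 0.04 for the ectopic Bdh2 array minus controls, and 0.18 for Bdh2 morphants minus controls, where 8 were higher and 3 lower. After centring they were -0.38, -0.055 and 0.28. The first was 0.0044 without Bdh2 morphant 1 and the second -0.0075 without control 2, so neither kept its direction, and the third was 0.041 without Bdh2 morphant 1. None of the 11 passed the test.

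Fatty acid transport proteins of family 27 take up and activate fatty acids, and all 3 were tested. slc27a2a, of the kind found in liver, read 100.1 on the ectopic Bdh2 array, 282 and 1298 in Bdh2 morphants 1 and 2 and 378 and 399 in controls 1 and 2. The Bdh2 morphants lay on both sides of the controls, and the ectopic Bdh2 array was below all 4. The ectopic Bdh2 array differed from Bdh2 morphants by -2.43 (SE 0.809; limma adjusted p = 0.326), the lowest of the 78 genes, and from controls by -1.80 (SE 0.809; limma adjusted p = 0.736). Without Bdh2 morphant 1 the difference from Bdh2 morphants was -3.50 and passed the test (limma adjusted p = 0.0462), whereas without Bdh2 morphant 2 it was -1.36 and did not pass (limma adjusted p = 0.577). Bdh2 morphants differed from controls by -0.40 within number 1 and 1.66 within number 2. slc27a1a and slc27a6 each read within a narrow range, 268 to 371 and 104 to 138 over the 5 arrays.

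Members listed for gut, liver and yolk numbered 6 tested of 27, and slc13a2, slc25a20, slc27a2a, slc37a4a and slc37a4b were among them. For 5 of the 6 the ectopic Bdh2 array was below both Bdh2 morphants, and for 5 of the 6 below both controls, where the shares over all tested probe sets were 29.9% and 28.9%. The medians were -0.86 and -1.43. On the ectopic Bdh2 array slc13a2 and slc37a4a read under the filter on intensity. They were tested through their values on other arrays, which partly fixed their direction. The counts of 5 are therefore no support for a direction. Bdh2 morphants minus controls had a median of 0.10, with 3 genes higher and 3 lower. On the ectopic Bdh2 array, the 8 tested liver markers of 13 listed were all below both Bdh2 morphants and both controls. The shares over all tested probe sets were 29.9% and 28.9%. The medians of the 8 were -2.32 from Bdh2 morphants and -2.25 from controls. In neither comparison did most of the 8 pass the test. In Bdh2 morphants minus controls the 8 had a median of -0.03. Their summed intensity, with the further marker on the array, was 8632 on the ectopic Bdh2 array, 33428 and 50815 in Bdh2 morphants and 42310 and 40069 in controls. The part of liver RNA in these solute carriers was not tested.

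The carboxylate and monocarboxylate carriers also hold slc16a9b, a carnitine transporter, and slc16a12b, a creatine transporter. slc16a9b read 564 on the ectopic Bdh2 array, 345 and 237 in Bdh2 morphants and 175 and 399 in controls, with the ectopic Bdh2 array above all others. slc16a12b read 69.6 on the ectopic Bdh2 array, 128 and 191 in Bdh2 morphants and 222 and 172 in controls, with the ectopic Bdh2 array below all others. Within these families, then, 1 gene was highest and another lowest on the same array. The lowest, slc16a12b, read under the filter on intensity there and was tested through its values on the other arrays. Its direction was therefore partly fixed by the filter. slc16a3b, of the lactate exporters, read 208 on the ectopic Bdh2 array, 171 and 283 in Bdh2 morphants and 283 and 388 in controls, and its Bdh2 morphants differed from controls by -0.56 (SE 0.391; limma adjusted p = 1.00). The higher Bdh2 morphant and the lower control were nearly equal.

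Facilitative sugar transporters of family 2 had 4 tested members of 8: slc2a3a, the counterpart of the neuronal glucose transporter of mammals, slc2a10, slc2a11b and slc2a15b. On the ectopic Bdh2 array all 4 were below both Bdh2 morphants (29.9% of all tested probe sets) and both controls (28.9%). Of these, slc2a10 read 89.0 on that array, under the filter on intensity. It was tested through its values on the other arrays, so its direction was partly fixed by the filter. The median differences were -0.39 from Bdh2 morphants and -0.39 from controls, and the smallest limma adjusted p of the 4 was 0.708 and 0.773. slc2a15b had the lowest difference from controls of the 4, at -0.91, with 227 on the ectopic Bdh2 array, 287 and 404 in Bdh2 morphants and 665 and 291 in controls. The median of Bdh2 morphants minus controls was 0.01. Centring each array gave -0.59, -0.48 and 0.11.

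Ion exchangers were mostly under the filter. slc4a2a, which exchanges chloride for bicarbonate, read 162 on the ectopic Bdh2 array, 575 and 363 in Bdh2 morphants and 317 and 559.7 in controls. Bdh2 morphants and controls overlapped fully, and the ectopic Bdh2 array was below all 4, with differences of -1.41 from Bdh2 morphants (SE 0.517; limma adjusted p = 0.357) and -1.30 from controls (SE 0.517; limma adjusted p = 0.677). Its 2 other probe sets were not tested, and over the 3 the difference from controls ran between -1.30 and 0.36, so they did not share a direction. slc9a7, a sodium-proton exchanger of the Golgi network, read 418 on the ectopic Bdh2 array, 339.9 and 249.7 in Bdh2 morphants and 276 and 205 in controls, with the ectopic Bdh2 array the highest. slc20a1b, a phosphate importer, read 2396 on the ectopic Bdh2 array, 2377 and 1785 in Bdh2 morphants and 1606 and 1878 in controls. Here the ectopic Bdh2 array and Bdh2 morphant 1 were nearly equal.

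Transporters of organelles were mixed. slc17a5, which exports sialic acid from lysosomes, read 220.4 on the ectopic Bdh2 array, 232 and 266 in Bdh2 morphants and 295 and 522 in controls, in groups that did not overlap, and Bdh2 morphants differed from controls by -0.63 (SE 0.39; limma adjusted p = 1.00). slc15a4, a lysosomal exporter of histidine and peptides, read 81.9 on the ectopic Bdh2 array, 201 and 151 in Bdh2 morphants and 167 and 146 in controls. slc35b2, which brings the sulfate donor PAPS into the Golgi, read 144 on the ectopic Bdh2 array, 96.2 and 52.7 in Bdh2 morphants and 139.7 and 96.2 in controls. Among the 5 arrays the ectopic Bdh2 array was thus the lowest for slc15a4 and the highest for slc35b2. On that array slc15a4 read under the filter on intensity, and it was tested through its values on the other arrays. In both Bdh2 morphants and control 2, slc35b2 read under the filter. It was tested through its values on the ectopic Bdh2 array and control 1. The direction of both genes was therefore partly fixed by the filter. Over the 6 tested members of family 35, mainly nucleotide sugar transporters, medians were -0.10 for the ectopic Bdh2 array minus Bdh2 morphants, 0.19 for the ectopic Bdh2 array minus controls and 0.30 for Bdh2 morphants minus controls, the last being -0.03 within number 1 and 0.31 within number 2. After centring they were -0.31, 0.095 and 0.40.

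Over all 78 genes, the ectopic Bdh2 array tended to lie below the other arrays. It was below both Bdh2 morphants for 37 genes and above both for 21, where the shares over all tested probe sets were 29.9% and 42.7%. It was below both controls for 37 genes and above both for 21, where the shares were 28.9% and 44.0%. The median difference from Bdh2 morphants was -0.25 (0.12 over all tested probe sets), with 51 of 78 below 0 (65.4%, beside 42.4%). From controls it was -0.15 (0.12 over all), with 44 of 78 below 0 (56.4%, beside 41.4%). With each array centred on its median, the median of all tested probe sets was -0.08 from Bdh2 morphants, 0.02 from controls and 0.10 for Bdh2 morphants minus controls. Relative to all tested probe sets the member median was -0.38 from Bdh2 morphants and -0.27 from controls. Centring shifts every probe set of an array by the same amount, so it cannot change these relative values. Relative to 1 tested probe set for each gene with a symbol, it was -0.33 and -0.24. With no filter on intensity, it was -0.24 and -0.19 relative to all probe sets. Against single arrays the member medians were -0.23 and -0.19 from Bdh2 morphants 1 and 2 and -0.19 and -0.17 from controls 1 and 2. No test was made of the members as a list, and both comparisons rest on the same single array.

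**Figure D3:**
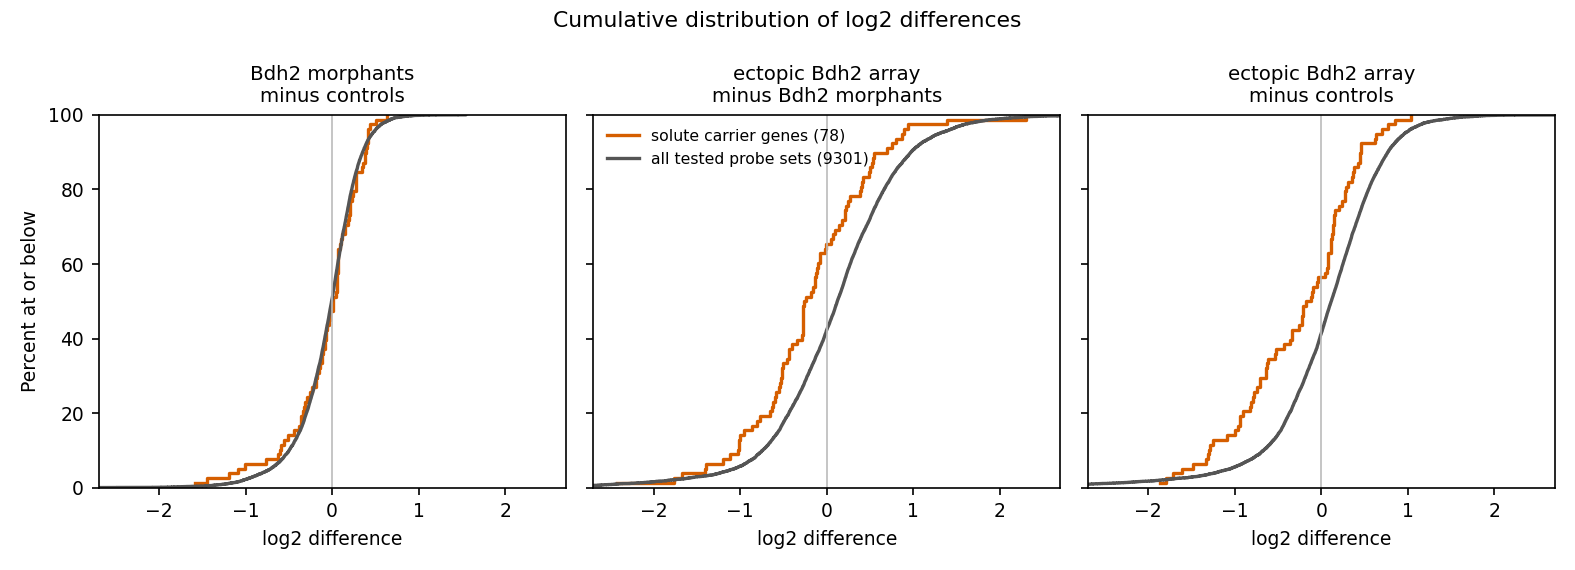
Cumulative percent of log2 differences at or below each value, for the 78 tested solute carrier genes (orange) and all 9301 tested probe sets (grey). In Bdh2 morphants minus controls the curves run together, and in both comparisons of the ectopic Bdh2 array the solute carrier curve lies to the left, with medians of -0.25 and -0.15 beside 0.12 and 0.12.

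No solute carrier passed the test in these comparisons. limma called 49 of 9301 probe sets for the ectopic Bdh2 array minus Bdh2 morphants (0.527%) and 62 for the ectopic Bdh2 array minus controls (0.667%), and 0 of 85 member probe sets in each, with smallest adjusted p of 0.171 and 0.251. At an unadjusted p under 0.05 by limma, 3 members were higher and 6 lower than in Bdh2 morphants (6.76% and 5.56% of all tested probe sets), and 0 higher and 9 lower than in controls (2.35% and 4.67%). The 6 include slc22a31, which read under the filter on the ectopic Bdh2 array and was tested through its values on the other arrays. The count of 6 is thus no support for a direction. The 9 include slc13a2, slc25a55b and slc16a12b, which read under the filter on the ectopic Bdh2 array. slc13a2 and slc25a55b were tested through their control values, and slc16a12b through its values on the other arrays. The count of 9 is therefore no support for a direction. slc7a6os, which matches the symbol pattern without being a transporter, was 1 of the 3 higher than in Bdh2 morphants. It read 2112 on the ectopic Bdh2 array, 1107 and 1149 in Bdh2 morphants and 1356 and 1226 in controls. Without it the median over 77 genes was -0.27 from Bdh2 morphants and -0.18 from controls. The comparisons share arrays with each other, so values of a gene in 2 of them are not independent.

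**Figure D4:**
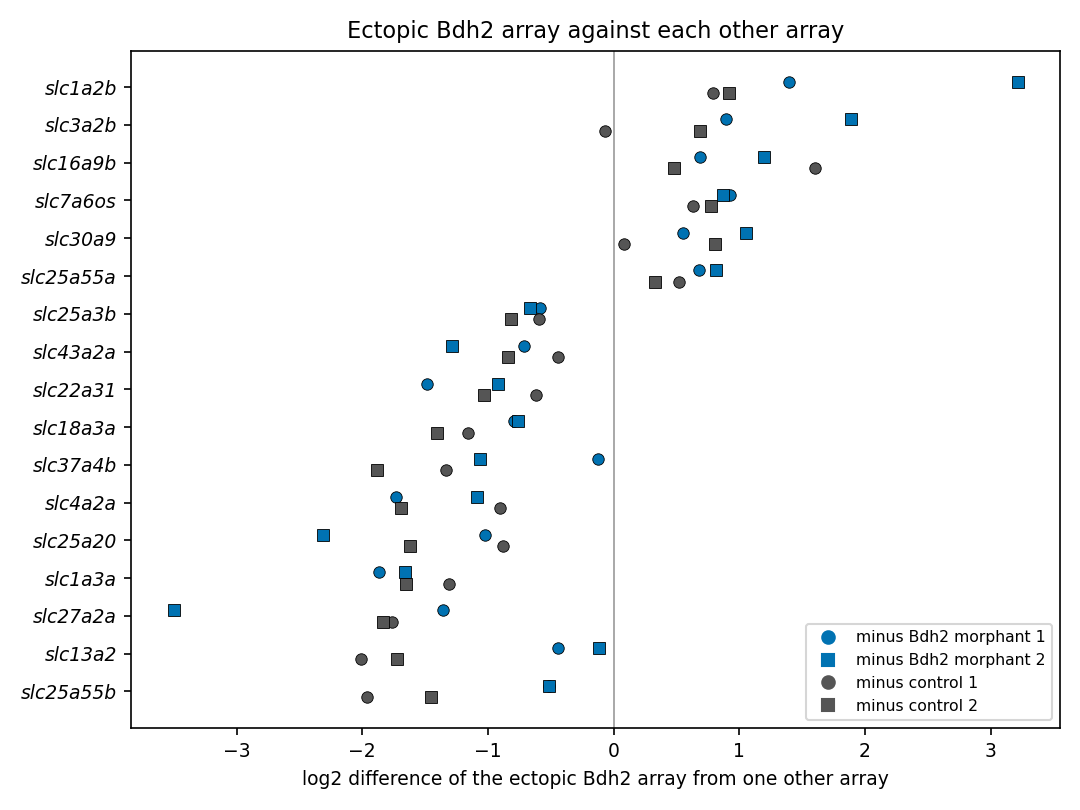
Log2 difference of the ectopic Bdh2 array from each of the other 4 arrays for 17 solute carrier genes from both ends of the range. For slc1a2b all 4 differences are above 0 and that from Bdh2 morphant 2 is the largest, at 3.21, and for slc27a2a all are below 0, down to -3.50.

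Replicates of a group differed about as much as the groups did. Across the 78 genes the size of the difference between replicates 2 and 1 had a median of 0.45 in Bdh2 morphants and 0.40 in controls, and that between Bdh2 morphants and controls was 0.37 within number 1 and 0.35 within number 2. Replicate 2 differed from replicate 1 in the same direction in both groups for 49 of 78 genes (62.8%, beside 67.5% of all tested probe sets), and Bdh2 morphants differed from controls in the same direction in both numbers for 41 (52.6%, beside 51.8%). The labels do not say that the number marks a batch. slc24a4a, a potassium-dependent sodium-calcium exchanger, was among those furthest down in number 2, with 241 and 41.3 in Bdh2 morphants 1 and 2 and 180.1 and 123 in controls 1 and 2. slc43a2b, an amino acid transporter, was among those furthest up, with 50.2 and 285 in Bdh2 morphants and 127 and 135 in controls.

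**Figure D5:**
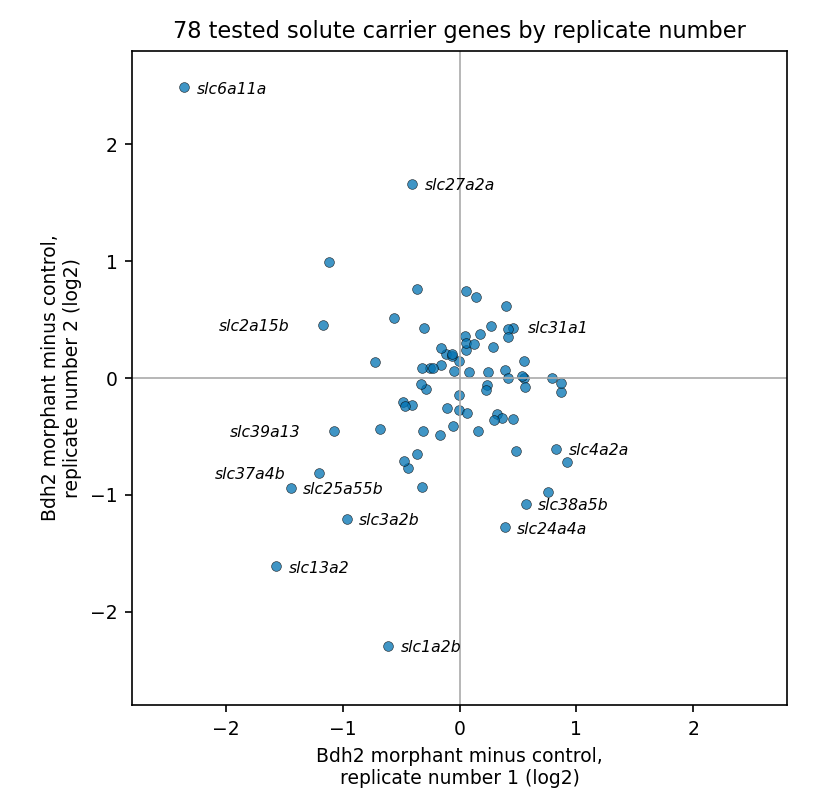
Difference of Bdh2 morphants minus controls within replicate number 2 (vertical, log2) against that within number 1 (horizontal, log2), one point per tested solute carrier gene. slc13a2, slc3a2b and slc25a55b lie below 0 on both axes, whereas slc6a11a lies at -2.36 and 2.49.

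Genes measured by several probe sets numbered 18. For slc35f6, with both probe sets tested, Bdh2 morphants minus controls was 0.40 by one and -0.49 by the other. The probe sets of slc25a11, the carrier of oxoglutarate and malate, gave -0.32 and -0.22 and so shared their direction. Over the 18 genes the probe sets disagreed in sign for 8.

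The 54 untested genes had mean intensities between 6.39 and 119, and their values do not show that the genes were silent. They include the intestinal peptide transporter slc15a1b (3.11 to 24.8 over the 5 arrays), the liver glucose transporter slc2a2 (11.8 to 38.4) and the thiazide-sensitive cotransporter slc12a3 (4.17 to 75.2). slc46a1, the intestinal folate transporter, lay between 38.2 and 84.1. In each of these 4 genes Bdh2 morphants and controls overlapped.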

How the data were processed

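The authors deposited 1 table of probe set intensities on a linear scale, credited to Affymetrix Expression Console per the submitters' processing notes. The sources used here give no version, summarisation or scaling for it, and detection calls were not used here. The number of arrays limits the precision. Symbols came from the array's annotation, and all 153 member probe sets matched the reference gene table by gene identifier and symbol.

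From these values log2(intensity + 16) was computed, without further normalisation. After 115 control probe sets were set aside, 9301 of 15502 probe sets passed the filter. A linear model of all 5 arrays, with 1 mean for each group, was fitted in limma 3.58.1 (R 4.3.3) with an intensity-dependent prior and 2 residual degrees of freedom. Tests were two-sided, with Benjamini-Hochberg adjustment across the 9301 probe sets and a threshold of 0.05. The pipeline was tested on simulated data, in 20 runs with 200 changed probe sets each. For Bdh2 morphants minus controls it recovered 8.35% of 2-fold changes and 81.9% of 4-fold changes. The simulated noise was independent between arrays, with no effect shared by a replicate number, so these shares need not hold for the real arrays. In the data, the 3 tested markers of photoreceptors and bipolar cells had a median of -3.14 in this comparison, and none passed. A gene that did not pass may therefore still differ by 2-fold or more.

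The members, classes and gene lists were chosen with earlier results of these data known. Genes named were those past the threshold, the 10 lowest and 10 highest differences among genes whose groups did not overlap, the 10 highest in controls, the 2 smallest p-values of each class, up to 4 examples of a list, and the 6 genes at either end of replicate 2 minus replicate 1. Alternatives covered moderation, filter, scaling, constant, probe set choice, leaving out each array in turn, and the replicate number as a block. The labels do not call the number a batch. Replicate 2 minus replicate 1 correlated between Bdh2 morphants and controls at r = 0.54 across all tested probe sets and 0.14 across the 78 genes, which are not independent replicates. With 2 pairs, this does not establish a pairing.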

Additional observations from a re-analysis of the deposited data

How the results depend on the processing

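The counts past the threshold, the member medians and the named genes were recomputed under 15 alternatives for Bdh2 morphants minus controls and 14 for each comparison of the ectopic Bdh2 array, which cannot be left out there. The filter at the 60th percentile kept 36 of the 54 named genes, and the gene and marker lists were not recomputed. For the solute carriers, 0 member probe sets passed the threshold under each alternative, except for the ectopic Bdh2 array in 2 kinds of setting. With the replicate number as a block and that array placed in block 2, against its label, 5 members passed against Bdh2 morphants: slc1a2b (2.79, limma adjusted p = 0.0234), slc3a2b (1.83, 0.0198), slc25a20 (-2.17, 0.0120), slc27a2a (-2.98, 0.0356) and slc1a3a (-1.80, 0.0226). Against controls 2 passed, slc37a4b (-1.98, 0.0313) and slc25a20 (-1.75, 0.0328). These were 5 and 2 of 85 member probe sets, where 823 and 393 of all 9301 probe sets passed, a larger share in both comparisons. Leaving out single arrays gave 0 to 2 members against Bdh2 morphants.

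Over all tested probe sets, calls for the ectopic Bdh2 array minus Bdh2 morphants (49) were 0 with a common prior, 17 with no filter, 151 with the block and 823 with that array in block 2, and 0 to 222 without single arrays. Against controls (62) they were 40, 38, 135 and 393, and 84 to 132 without single arrays, and for Bdh2 morphants minus controls (0) they were 3 with either block and 0 to 5 without single arrays. The member median from Bdh2 morphants (-0.25) was -0.11 with no filter and -0.46 with each array centred.

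All 54 named genes in the 3 comparisons gave 2268 values over the alternatives, of which 88 had another sign than reported, 54 of them with an array left out. The text prints 84 of these gene and comparison pairs, a set narrowed after the wider one had been computed, mostly to genes whose groups do not overlap, which partly fixes their sign: of 1182 values 20 had another sign. With each array centred slc25a3b was 0.026 in Bdh2 morphants minus controls. With the block, slc17a5 was 0.082 from Bdh2 morphants and slc3a2b -0.13 from controls for the ectopic Bdh2 array, and slc11a2 was 0.042 and 0.11 with that array in block 2. Without single arrays, Bdh2 morphants minus controls ranged as follows. The gene slc39a13 ran between -1.53 and 0.0038, slc4a2a between -0.28 and 0.50, slc11a2 between -0.29 and 0.43, slc27a2a between -0.44 and 1.70, slc2a11b between -0.069 and 0.16, slc25a20 between -0.22 and 1.06, slc6a11a between -1.44 and 1.57, slc2a15b between -0.93 and 0.22, and slc25a3b between -0.19 and 0.033. For the ectopic Bdh2 array slc11a2 ran between -0.56 and 0.0044 from Bdh2 morphants and between -0.57 and 0.15 from controls, and slc3a2b between -0.068 and 0.68 from controls. The cause of these shifts was not tested. Fewer arrays or probe sets also change the estimated spread.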
